A study of Homo sapiens with 42 samples.

Results

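A set of 10 genes of the epithelial-mesenchymal transition (EMT) was followed by RNA-seq in 786-O cells: SNAI1, SNAI2, TWIST1, TWIST2, ZEB1, ZEB2, VIM, FN1, EPCAM and GRHL2. The 10 genes were taken by symbol from 60609 annotated genes. 786-O is a clear cell renal cell carcinoma (ccRCC) line that lacks functional VHL and HIF-1α and keeps its own HIF-2α, so every group below shares that background. The first sequencing batch held WT cells, 2 knock-in (KIN) clones in which endogenous HIF-1β (clone A21) or HIF-2α (clone A31) carries a V5-Halo tag at the N-terminus, and 6 stable lines in which the L30 promoter drives a V5-Halo-tagged transgene in otherwise WT cells. The 6 transgenes of this batch were HIF-1α, its DNA-binding mutant HIF-1α R30E, its dimerization mutant HIF-1αDM (R170A-V191D), HIF-2α, its DNA-binding mutant HIF-2α R27E and its dimerization mutant HIF-2αDM (R171A-V192D). The second batch held WT cells and L30 lines with HIF-1α, HIF-2α and 2 domain swaps. In HIF-2α/1α the N-terminal structured part comes from HIF-2α and the C-terminal intrinsically disordered region (IDR) from HIF-1α. HIF-1α/2α is the converse. Each group had 3 libraries, which gave 27 libraries for batch 1 and 15 for batch 2. RNA extraction and library kits differed between the batches, so each was normalized and tested on its own. Each KIN group is 1 clone, the transgenic lines still hold endogenous HIF-2α, and WT cells carry neither transgene nor tag. The transgenic lines were made by transposition and kept in puromycin selection, a step the paper does not describe for WT cells. The genotype label of the HIF-2αDM libraries names HIF-1α with the HIF-2α substitutions, whereas their titles and descriptions name HIF-2αDM, which is the name used here.

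EMT is the switch by which epithelial cells loosen their junctions and take on a motile, matrix-producing state. Zinc-finger repressors of the Snail (SNAI1, SNAI2) and ZEB (ZEB1, ZEB2) families and the helix-loop-helix factors TWIST1 and TWIST2 silence epithelial genes such as the one for E-cadherin, while GRHL2 maintains the epithelial program. VIM encodes the intermediate filament vimentin and FN1 the matrix glycoprotein fibronectin, both classed as mesenchymal markers, and EPCAM encodes an epithelial adhesion molecule. HIF heterodimers of an α subunit and HIF-1β bind the core ACGTG or GCGTG of the hypoxia response element (HRE).

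Promoter sequences are shown for FN1, the gene with the highest counts among those that changed, and for ZEB2. Among the 5 genes whose window could be searched, ZEB2 was the only one with HRE cores. The RefSeq promoter table (GRCh38.p14) matched 5 of the 10 genes, namely TWIST2, ZEB1, ZEB2, VIM and FN1, and the 250 bases before each start site were searched on both strands. The FN1 window, chr2:215436069-215436318 on the minus strand, is shown with a cAMP response element (TGACGTCA) in capitals, which lay 183 bases before the start. Its last bases reach the first FN1 exon of GENCODE.
FN1: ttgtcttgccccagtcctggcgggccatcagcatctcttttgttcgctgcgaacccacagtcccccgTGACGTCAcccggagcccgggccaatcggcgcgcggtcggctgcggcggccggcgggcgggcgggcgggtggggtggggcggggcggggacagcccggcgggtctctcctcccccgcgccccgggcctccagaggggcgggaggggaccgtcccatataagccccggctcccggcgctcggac
ZEB2: CACGTtttcacatgatgctCACGC
The ZEB2 stretch, chr2:144520284-144520307 on the minus strand, holds its 2 most distal HRE cores in capitals, read on the opposite strand, at 188 and 169 bases before the RefSeq start, and a further pair lay at 123 and 51 bases. Exons of other ZEB2 transcripts and of its antisense gene ZEB2-AS1 cover this stretch. An HRE core was found in 43.2% of 34943 promoters of this length, so its presence is common, and in none of the other 4 matched windows. TGACGTCA was found in 1.63% of promoters and only in FN1 among the 5. The Snail and ZEB box CACCTG was found in 17.5% of promoters and in none of the 5. These matches describe letters and not sites of binding.

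The libraries held 42377599 to 101186554 counted reads in batch 1 (median 66795104) and 76366799 to 109642159 in batch 2 (median 90438640). Levels are given in CPM, reads per 1000000 counted reads, after trimmed-mean (TMM) scaling within the batch. A count of 0 allows up to 3 reads, or 0.0313 to 0.0706 CPM in batch 1 and 0.0271 to 0.0399 CPM in batch 2, and such limits cover counting error only. The transgenes were seen in the counts: HIF1A averaged 33.5 to 45.2 CPM in the HIF-1α, R30E and HIF-1αDM lines against 3.61 CPM in WT, and EPAS1, which encodes HIF-2α, averaged 666 to 844 CPM in the HIF-2α, R27E and HIF-2αDM lines against 216 CPM in WT and 92.0 CPM in the HIF-2α KIN. HIF1A also averaged 13.5 CPM in the HIF-2α line, and EPAS1 342 CPM in the HIF-1α line, whose libraries (311.8 to 385.8 CPM) did not overlap WT (187.1 to 247.1 CPM). In batch 2, HIF1A averaged 147 CPM with HIF-1α, 108 CPM with HIF-2α/1α and 109 CPM with HIF-1α/2α against 3.27 CPM in WT, and EPAS1 averaged 475 CPM with HIF-2α, 232 CPM with HIF-2α/1α, 574 CPM with HIF-1α/2α and 183 CPM with HIF-1α against 141 CPM in WT. ARNT, which encodes HIF-1β, averaged 16.6 to 24.2 CPM across batch 1 and 37.6 to 43.6 CPM across batch 2. The 5 renal markers PAX8, PAX2, CA9, NDUFA4L2 and NNMT summed to 571 to 892 CPM per library in batch 1 and 340 to 540 CPM in batch 2. The sum differed between groups, with the lowest mean with HIF-2α and the highest in WT in both batches (619 and 821 CPM, 366 and 531 CPM). In batch 2 the HIF-2α libraries (340 to 389 CPM) did not overlap WT (520 to 540 CPM). Its part in the values below was not tested. Summed leukocyte and endothelial markers stayed at or under 0.61 CPM in every library. Of the 4 fibroblast markers, DCN had no read in batch 1 and PDGFRB made up most of the sum, which was 12.7 to 20.7 CPM in the HIF-2α KIN libraries and at most 5.12 CPM in the other batch 1 libraries.

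Tests are edgeR quasi-likelihood fits over all genes of a batch, with 3 libraries a group, which the study calls biological replicates. The labels do not name separate cultures, so p-values measure the spread between these libraries. A gene is called when its Benjamini-Hochberg adjusted p is at most 0.01 and its fold change is at least 2. Of the 10 genes, 7 passed the low-count filter in batch 1 (23410 genes tested) and 8 in batch 2 (28724 genes tested). TWIST1, TWIST2 and GRHL2 had no read in any of the 27 libraries of batch 1. In batch 2, TWIST1 had 6 reads in 5 libraries, TWIST2 had 1 read, and GRHL2 had 9 reads in 4 libraries, at most 4 in one, which sufficed for the filter. The 3 genes were at or near the floor in WT cells and in every line, so no difference in them was detectable at this depth.

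The other 7 genes were read in all 42 libraries. Per kilobase of exon, VIM and FN1 had the highest group means. VIM averaged 109 to 215 RPKM (CPM per kilobase) in batch 1 and 423 to 586 RPKM in batch 2. FN1 averaged 35.9 to 273 RPKM and 74.9 to 394 RPKM. In batch 1 FN1 lay above VIM in WT (181.5 against 144.2 RPKM) and below VIM with HIF-2α (35.9 against 215 RPKM). In batch 2 it lay below VIM in every group. SNAI1 averaged 19.8 to 30 RPKM in batch 1 and 8.25 to 15.9 RPKM in batch 2, and SNAI2 3.12 to 6.7 RPKM and 6.12 to 11.4 RPKM. ZEB1 averaged 0.463 to 0.745 RPKM and 1.74 to 2.09 RPKM, ZEB2 0.456 to 0.865 RPKM and 0.773 to 1.19 RPKM, and EPCAM 0.228 to 2.11 RPKM and 0.816 to 3.1 RPKM. On this scale the mesenchymal structural genes were abundant, the Snail factors intermediate, and ZEB1, ZEB2 and EPCAM low. The place of ZEB2 rests on its exon length of 26151 bases. In CPM its group means (11.9 to 22.6 and 20.2 to 31.1) were close to those of SNAI2 (10.25 to 22.0 and 20.1 to 37.6). N-cadherin (CDH2), a further mesenchymal marker, averaged 108 to 163 CPM across batch 1 groups and 340 to 414 CPM across batch 2 groups, whereas E-cadherin (CDH1) had at most 12 reads in a library of batch 1 and 20 in batch 2.

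FN1 and EPCAM both fell with exogenous HIF-2α in batch 1, and neither passed the threshold with either HIF-2α mutant. FN1 stood at 3489, 3564 and 2323 CPM in the 3 WT libraries and at 682, 599 and 572 CPM in the 3 HIF-2α libraries. It stood at 3747, 3136 and 1603 CPM with HIF-2α R27E and at 3380, 3842 and 2560 CPM with HIF-2αDM. All 3 HIF-2α libraries lay below every WT, R27E and HIF-2αDM library. The FN1 change from WT was -2.34 ± 0.33 on the log2 scale (SE, adjusted p = 1.04e-05), or 5.06-fold lower. Against R27E it was -2.20 ± 0.33 (adjusted p = 3.57e-05) and against HIF-2αDM -2.40 ± 0.33 (adjusted p = 9.96e-06). In bulk RNA, fewer cells with a transcript and less of it per cell cannot be told apart, here or below.

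EPCAM moved the same way from a much lower level. It measured 6.04, 5.13 and 4.19 CPM in WT, 1.25, 1.36 and 1.41 CPM with HIF-2α, 4.12, 5.09 and 4.86 CPM with R27E, and 3.07, 4.16 and 4.19 CPM with HIF-2αDM. The HIF-2α libraries again did not overlap any of these groups. The log2 change was -1.93 ± 0.24 from WT (adjusted p = 1.8e-06), -1.81 ± 0.24 from R27E (adjusted p = 7.26e-06) and -1.50 ± 0.24 from HIF-2αDM (adjusted p = 7.82e-05). Thus 2 of the 10 genes were called in each of the 3 comparisons, both lower, against 5.72% of all genes tested for HIF-2α versus WT, 3.63% versus R27E and 3.96% versus HIF-2αDM. The mean EPAS1 level was 844 CPM with R27E, 725 CPM with HIF-2αDM and 666 CPM with HIF-2α. The fibroblast marker sum was also lower with HIF-2α, at 1.12 to 1.69 CPM against 2.79 to 3.8 CPM in WT and 3.27 to 5.12 CPM with the 2 mutants, and its part in these values was not tested.

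The mutants themselves left the 10 genes without a call. In edgeR, 0 were called for R27E versus WT (background 0.496%) and 0 for HIF-2αDM versus WT (0.474%), with 1 gene at an unadjusted p under 0.05 in each, and DESeq2 also called 0. The intervals still allowed sizeable shifts: the FN1 log2 change was -0.14 (95% interval -0.79 to 0.51) with R27E and 0.06 (-0.59 to 0.71) with HIF-2αDM. For EPCAM the values were -0.13 (-0.60 to 0.35) and -0.43 (-0.90 to 0.05). ZEB2, the other gene that differed between HIF-2α and its dimerization mutant, measured 22.9, 22.1 and 22.8 CPM with HIF-2α against 13.8, 13.9 and 14.4 CPM with HIF-2αDM. Its log2 difference of 0.69 ± 0.17 passed the adjusted p (0.00725) without reaching 2-fold. Leaving out any 1 of these 6 libraries raised the adjusted p to between 0.0195 and 0.0341, and a fit with a replicate block gave 0.00176.

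**Figure D1:**
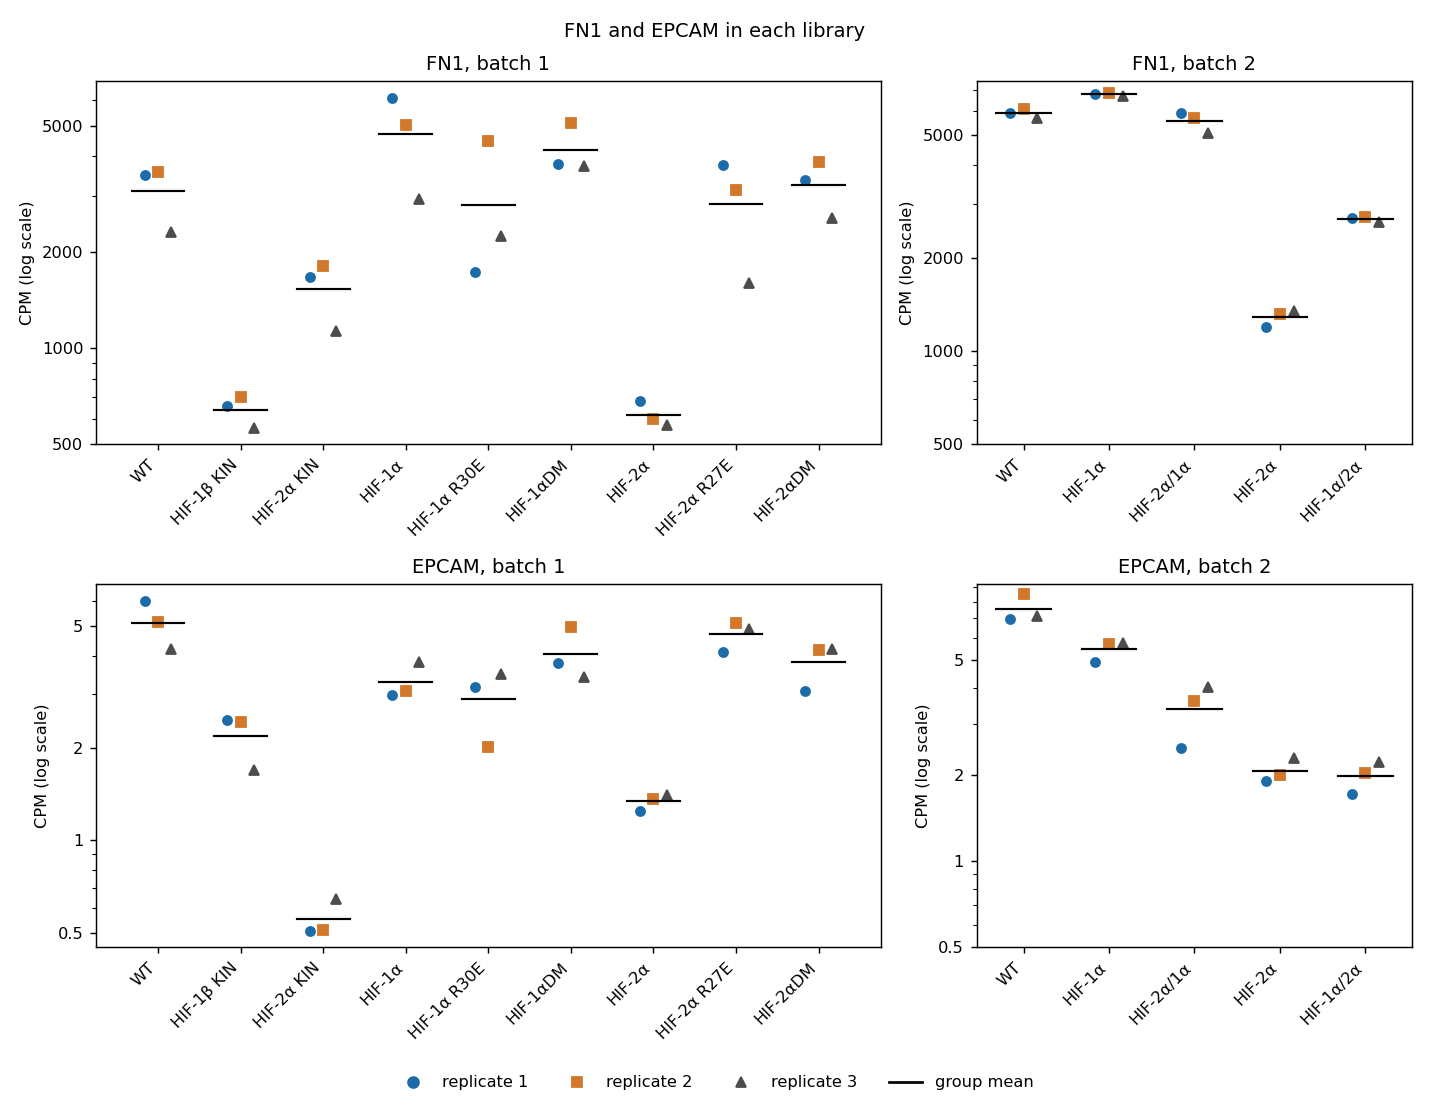
FN1 (top) and EPCAM (bottom) in CPM on a log axis in every library of batch 1 (left) and batch 2 (right). Points are single libraries, marked by replicate number, and black bars are group means. The HIF-2α libraries lie at 572 to 682 CPM for FN1 in batch 1, below every WT library (2323 to 3564 CPM), and the HIF-2α KIN libraries have the lowest EPCAM at 0.506 to 0.642 CPM.

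Exogenous HIF-1α gave no call among the 10 genes in batch 1. FN1 measured 6124, 5031 and 2948 CPM with HIF-1α, 1737, 4463 and 2253 CPM with R30E, and 3797, 5076 and 3725 CPM with HIF-1αDM. HIF-1α and R30E overlapped WT, whereas HIF-1αDM lay above all 3 WT libraries, with a log2 change of 0.43 ± 0.32 that did not pass the test. EPCAM measured 2.98, 3.06 and 3.80 CPM with HIF-1α, 3.16, 2.02 and 3.48 CPM with R30E, and 3.78, 4.94 and 3.40 CPM with HIF-1αDM. The HIF-1α and R30E libraries lay below all WT libraries, with log2 changes of -0.64 ± 0.23 and -0.83 ± 0.23, and neither passed the adjusted p. HIF-1αDM overlapped WT. In edgeR, 0 genes were called for HIF-1α versus WT (background 3.79%), R30E versus WT (2.61%), HIF-1αDM versus WT (0.457%), HIF-1α versus R30E (1.75%) and HIF-1α versus HIF-1αDM (1.37%). The genes at an unadjusted p under 0.05 numbered 3, 2, 3, 3 and 0 in these comparisons, and DESeq2 called 0 in each.

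Set directly against HIF-1α in batch 1, HIF-2α gave 2 calls (background 2.4%). FN1 was 7.61-fold lower (log2 -2.93 ± 0.34, adjusted p = 1.38e-06) and EPCAM was 2.45-fold lower (log2 -1.29 ± 0.24, adjusted p = 0.000817). Both pairs of groups were free of overlap. With these 6 libraries fitted alone, the adjusted p of EPCAM was 0.0104, and the gene was no longer called.

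EPCAM was lower than in WT cells in both KIN clones, and FN1 fell in the HIF-1β KIN clone. FN1 measured 658, 703 and 561 CPM in the HIF-1β KIN clone and 1671, 1808 and 1128 CPM in the HIF-2α KIN clone. Both clones lay below every WT library. The HIF-1β KIN change was -2.29 ± 0.33 on the log2 scale (adjusted p = 5.6e-05). The HIF-2α KIN change was -1.03 ± 0.32 with an adjusted p of 0.0379, so it was not called. A fit with a replicate block gave -1.03 with an adjusted p of 0.000559, a call.

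EPCAM measured 2.47, 2.42 and 1.69 CPM in the HIF-1β KIN clone and 0.506, 0.510 and 0.642 CPM in the HIF-2α KIN clone, the lowest of the 9 groups of batch 1. The HIF-2α KIN value was 9.17-fold below WT (log2 -3.20 ± 0.26, adjusted p = 1.87e-09). The HIF-1β KIN value was 2.33-fold below WT (log2 -1.22 ± 0.24, adjusted p = 0.00195), a call that was lost without WT replicate 1 (adjusted p = 0.0192), without HIF-1β KIN replicate 3 (0.0228), and with these 6 libraries fitted alone (0.0271). The counts were 2 of 10 genes called for the HIF-1β KIN (background 1.38%) and 1 for the HIF-2α KIN (4.14%). Between the clones 1 gene was called (2.45%), namely EPCAM, lower in the HIF-2α KIN at -1.97 ± 0.25 (adjusted p = 6.44e-06). FN1 was 2.40-fold higher in the HIF-2α KIN with an adjusted p of 0.0148, and with the replicate block the difference was 1.23 with an adjusted p of 9.24e-05. The fibroblast marker sum, carried by PDGFRB, was higher in the HIF-2α KIN than in any other group, and its part in these values was not tested.

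In the order of batch 1 group means, FN1 was lowest with HIF-2α and in the HIF-1β KIN, whose libraries overlapped. A gap separated these from the HIF-2α KIN, and each of the other neighbours up to HIF-1α overlapped the next. EPCAM was lowest in the HIF-2α KIN, then with HIF-2α, then in the HIF-1β KIN, each clear of the next, and the groups from the HIF-1β KIN to WT overlapped their neighbours.

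The replicate number moved with some of these genes in batch 1. VIM was highest in replicate 3 in 8 of 9 groups, with a median ratio of 1.8 between replicate 3 and the mean of the other two. FN1 was lowest in replicate 3 in 8 of 9 groups, with a median ratio of 0.709. With the libraries numbered 3 left out, FN1 and EPCAM stayed called for HIF-2α versus WT, and EPCAM was no longer called for the HIF-1β KIN (adjusted p = 0.0137).

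Vimentin and the 4 expressed transcription factors gave no call in batch 1. With the replicate block, ZEB2 in the HIF-1β KIN (log2 -0.65, adjusted p = 0.00774) and SNAI2 in the HIF-2α KIN (log2 0.59, adjusted p = 0.00956) passed the adjusted p without reaching 2-fold, and without the block their adjusted p values were 0.0305 and 0.0331. VIM measured 587, 631 and 1021 CPM in WT and 971, 896 and 1465 CPM with HIF-2α, the group with the highest mean. These groups overlapped, and the log2 change was 0.57 ± 0.38. SNAI1 measured 26.6, 28.4 and 46.0 CPM in WT, 44.5, 57.1 and 51.9 CPM with HIF-1α and 47.5, 51.5 and 49.3 CPM with HIF-2α. SNAI1 means of all 8 groups exceeded the WT mean of 33.7 CPM, with log2 changes of 0.29 to 0.60, and none passed the adjusted p. SNAI2 averaged 10.3 CPM with HIF-1α, 14.6 CPM in WT, 15.7 CPM with HIF-2α and 22.0 CPM in the HIF-2α KIN, and in the order of all 9 group means every group overlapped the next. ZEB1 averaged 4.00 to 5.56 CPM in the 8 groups and 6.44 CPM in WT. ZEB2 averaged 22.6 CPM with HIF-2α against 18.6 CPM in WT and 11.9 to 17.1 CPM in the other 7 groups. The HIF-2α libraries lay above all others of the batch for ZEB2, and the log2 change from WT, 0.28 ± 0.17, did not pass the test.

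**Figure D2:**
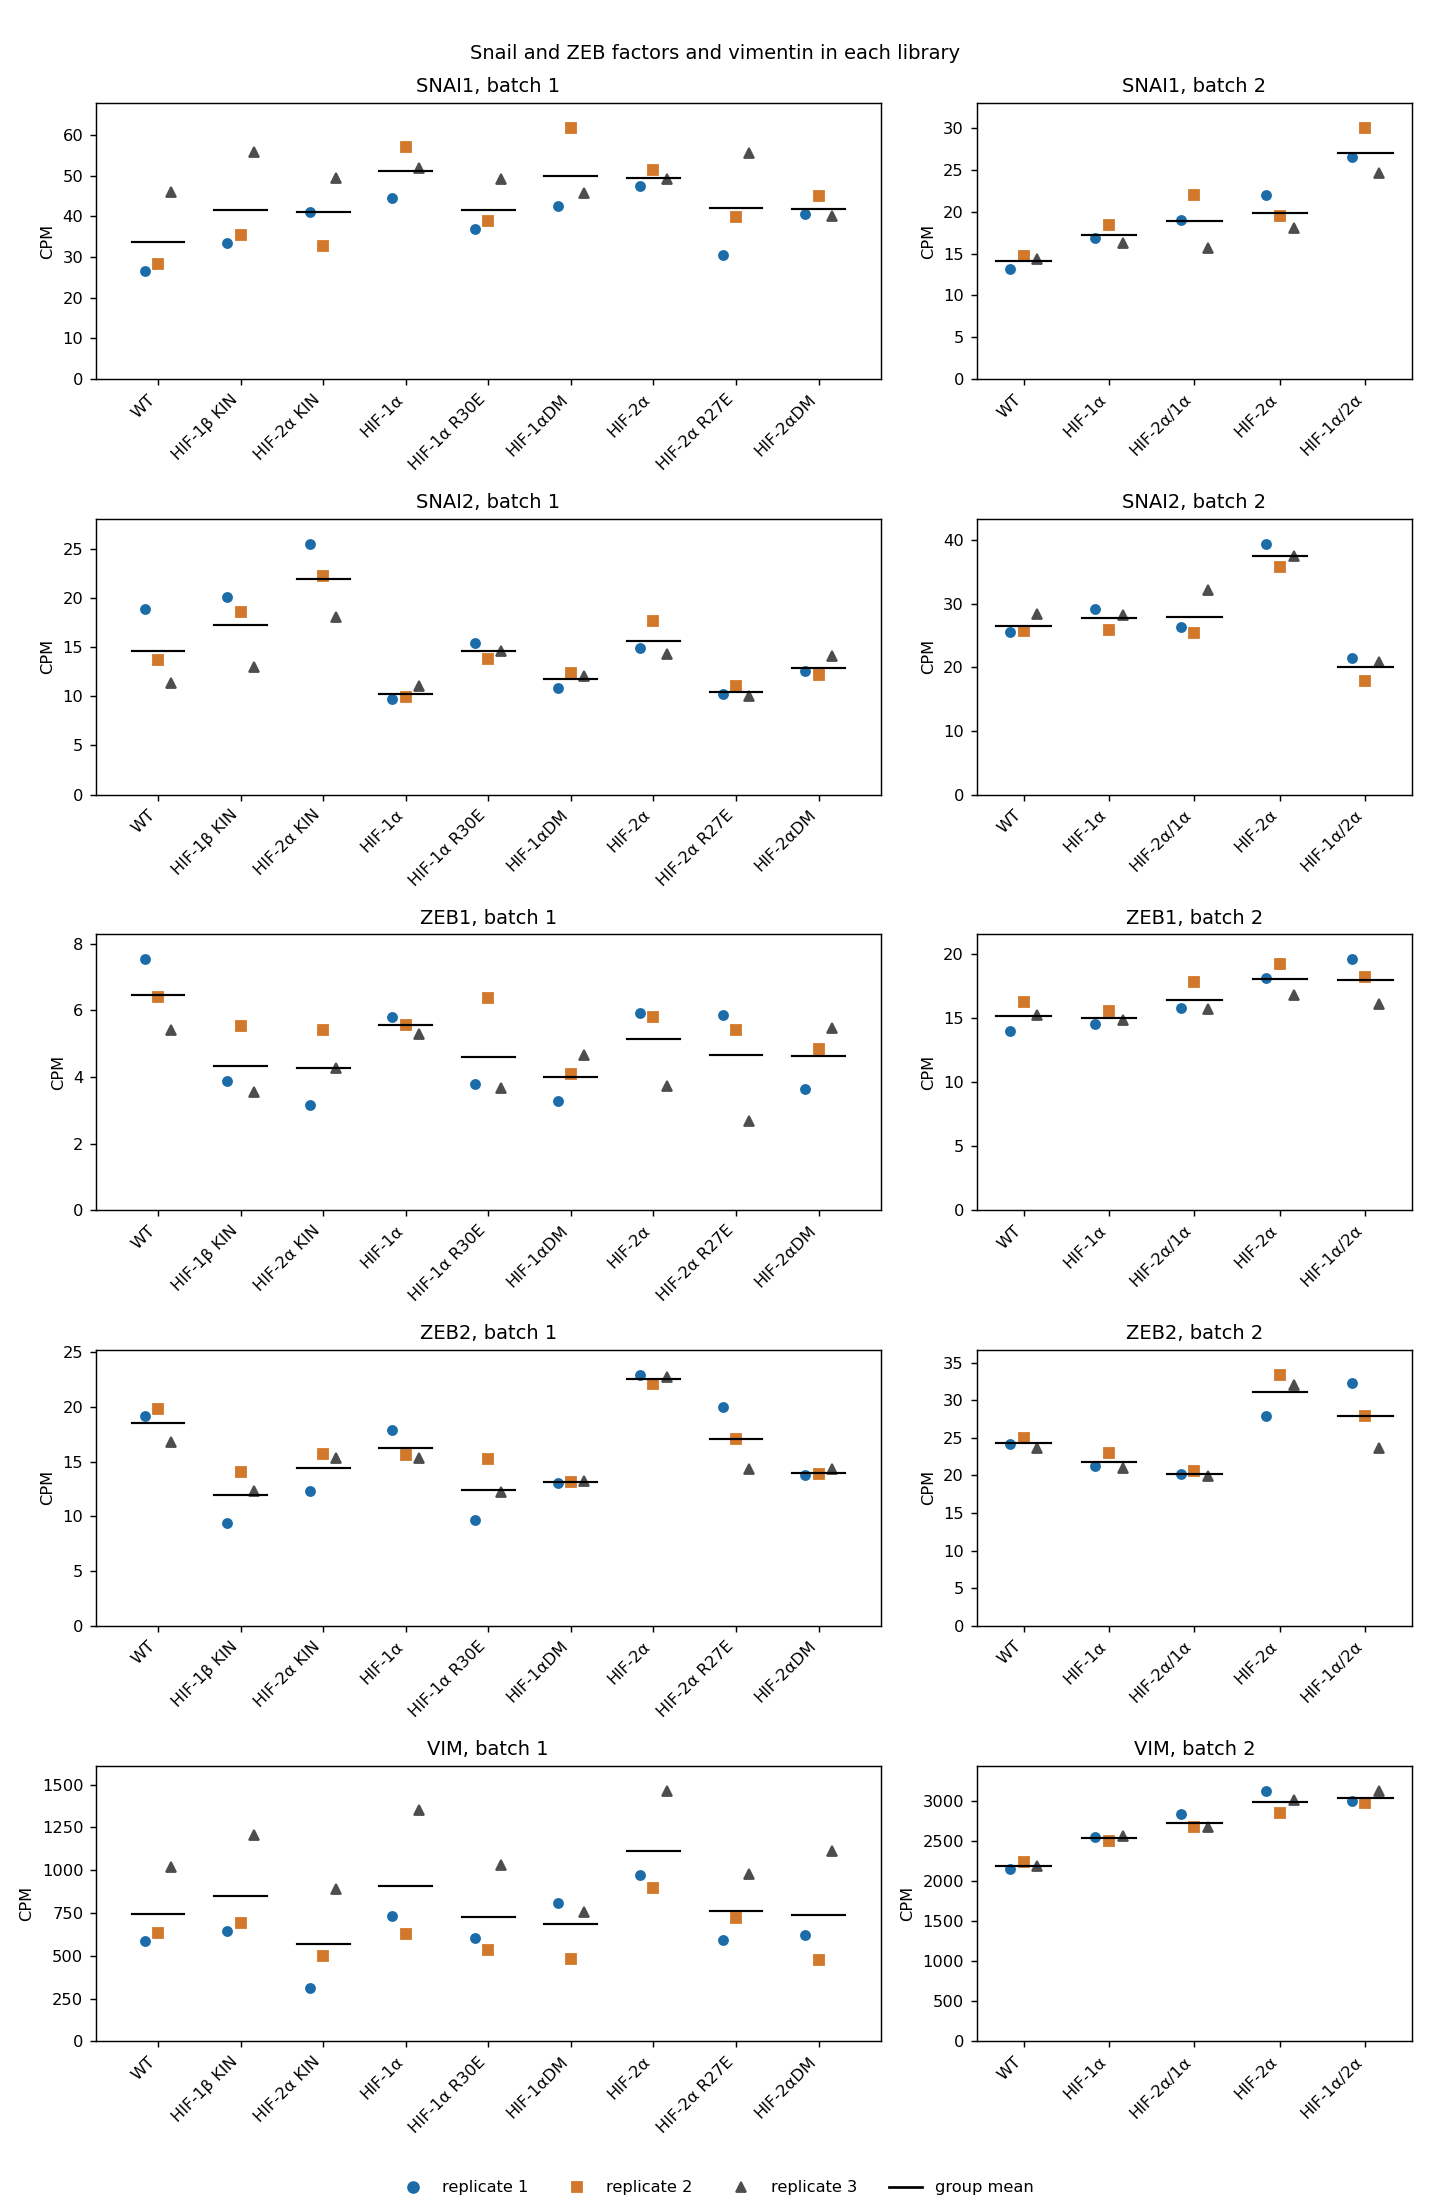
SNAI1, SNAI2, ZEB1, ZEB2 and VIM (rows) in CPM in every library of batch 1 (left) and batch 2 (right), on linear axes from 0. Points are single libraries by replicate number and black bars are group means. Replicate 3 of batch 1 has the highest VIM in 8 of 9 groups, and in batch 2 VIM rises from 2145 to 2241 CPM in WT to 2971 to 3129 CPM with HIF-1α/2α.

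Batch 2 held the domain swaps and had the tighter replicates. FN1 measured 5927, 6103 and 5699 CPM in WT, 6784, 6873 and 6712 CPM with HIF-1α, 5918, 5694 and 5089 CPM with HIF-2α/1α, 2707, 2715 and 2625 CPM with HIF-1α/2α, and 1202, 1317 and 1350 CPM with HIF-2α. Both lines with the HIF-2α IDR lay below all 9 libraries of the other groups, and HIF-2α lay below HIF-1α/2α. The log2 change from WT was -2.20 ± 0.05 with HIF-2α (adjusted p = 1.19e-34), -1.14 ± 0.05 with HIF-1α/2α (adjusted p = 1.86e-24), -0.09 ± 0.05 with HIF-2α/1α and 0.20 ± 0.05 with HIF-1α (adjusted p = 0.000733). HIF-2α/1α overlapped WT. The small HIF-1α rise had an adjusted p of 0.0102 without WT replicate 3.

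EPCAM was lower than in WT in every transgenic line of batch 2. This batch held no line with an inactive mutant. A change shared by all its lines, here or below, therefore cannot be told apart from the puromycin selection that the lines had in common. It measured 6.99, 8.51 and 7.12 CPM in WT, 4.93, 5.72 and 5.74 CPM with HIF-1α, 2.47, 3.60 and 4.05 CPM with HIF-2α/1α, 1.90, 2.00 and 2.28 CPM with HIF-2α, and 1.71, 2.02 and 2.22 CPM with HIF-1α/2α. Neighbours in this order were separate except for HIF-2α and HIF-1α/2α. The log2 changes were -0.47 ± 0.14 with HIF-1α (adjusted p = 0.00847), -1.16 ± 0.14 with HIF-2α/1α (adjusted p = 8.94e-09), -1.87 ± 0.15 with HIF-2α (adjusted p = 1.45e-14) and -1.93 ± 0.15 with HIF-1α/2α (adjusted p = 5.12e-15). The HIF-1α value did not hold when any 1 of its 6 libraries was left out (adjusted p = 0.0113 to 0.0947). Without HIF-2α/1α replicate 1 the HIF-2α/1α change was -0.98, under 2-fold. The fibroblast marker sum was 2.9 to 4.59 CPM in WT, 1.73 to 2.07 CPM with HIF-2α/1α, 1.02 to 1.48 CPM with HIF-1α, 0.709 to 0.952 CPM with HIF-2α and 0.226 to 0.388 CPM with HIF-1α/2α. LUM and PDGFRB, markers in this sum, are also in the mesenchymal list below. The part of the sum in the FN1 and EPCAM values was not tested.

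VIM was higher than in WT in every transgenic line of batch 2 by less than 2-fold, another change that the lines shared. It measured 2145, 2241 and 2187 CPM in WT, 2546, 2501 and 2560 CPM with HIF-1α, 2834, 2681 and 2675 CPM with HIF-2α/1α, 3121, 2850 and 3006 CPM with HIF-2α, and 2999, 2971 and 3129 CPM with HIF-1α/2α. No transgenic library overlapped WT. The log2 changes ran from 0.21 ± 0.04 with HIF-1α (adjusted p = 0.000112) to 0.47 ± 0.04 with HIF-1α/2α (adjusted p = 8.21e-13).

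SNAI1 stood at 13.2, 14.7 and 14.3 CPM in WT and at 26.6, 30.0 and 24.7 CPM with HIF-1α/2α, the highest group and one that overlapped no other. Its log2 change was 0.94 ± 0.09 (adjusted p = 7.72e-12), or 1.92-fold, just under the fold required, and without HIF-1α/2α replicate 3 it was 1.01. SNAI1 also rose with HIF-2α (0.50 ± 0.09, adjusted p = 1.69e-05) and with HIF-2α/1α (0.43 ± 0.09, adjusted p = 0.000362). The HIF-2α/1α rise had an adjusted p of 0.0176 without HIF-2α/1α replicate 2. With HIF-1α the change was 0.29 ± 0.09 (adjusted p = 0.0154), and the fit with a replicate block gave 0.29 with an adjusted p of 0.000863.

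SNAI2 moved in opposite directions in the 2 lines with the HIF-2α IDR. It measured 25.5, 25.7 and 28.4 CPM in WT, 39.4, 35.8 and 37.5 CPM with HIF-2α, and 21.5, 17.8 and 20.9 CPM with HIF-1α/2α. HIF-2α lay above all other libraries and HIF-1α/2α below them. The log2 changes were 0.50 ± 0.08 (adjusted p = 8.67e-07) and -0.40 ± 0.08 (adjusted p = 5.67e-05). HIF-1α and HIF-2α/1α, with means of 27.8 and 28.0 CPM, overlapped WT.

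ZEB2 rose with HIF-2α, from 24.2, 24.9 and 23.7 CPM in WT to 27.9, 33.4 and 32.0 CPM (log2 0.36 ± 0.08, adjusted p = 0.000317). With HIF-1α/2α it measured 32.3, 28.0 and 23.7 CPM and overlapped WT. With HIF-1α and HIF-2α/1α its means were 21.8 and 20.2 CPM, without overlap with WT, and neither change passed the adjusted p. ZEB1 averaged 15.2 CPM in WT and 15.0 to 18.1 CPM in the 4 lines, and no change from WT passed the adjusted p. With the replicate block, ZEB1 passed with HIF-2α (log2 0.25, adjusted p = 0.0046) and HIF-1α/2α (0.24, 0.00584), and for HIF-2α versus HIF-1α (0.27, 0.00354). ZEB2 passed with HIF-2α/1α (-0.27, 0.00129). None of these reached 2-fold, and same-numbered libraries of batch 2 did not deviate together.

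HIF-1α versus WT called 0 of the 10 genes (background 4.39%), HIF-2α called 2 (7.58%), HIF-2α/1α called 1 (3.49%) and HIF-1α/2α called 2 (7.78%). For the 0 in edgeR, 4 genes had an unadjusted p under 0.05, and DESeq2 called 0 as well. By the adjusted p alone, 3, 6, 3 and 5 of the 10 genes passed, against 17.2%, 27.4%, 16.7% and 27.8% of all genes tested. With HIF-2α, 4 of these were higher (SNAI1, SNAI2, ZEB2 and VIM) and 2 lower (FN1 and EPCAM). HIF-2α versus HIF-1α gave 2 calls (3.78%), FN1 at -2.40 ± 0.05 (adjusted p = 1.21e-35) and EPCAM at -1.41 ± 0.15 (adjusted p = 1.65e-10), and 5 of 10 by the adjusted p alone (17.6%). The other 3 were SNAI2 at 0.44, ZEB2 at 0.52 and VIM at 0.24, all higher with HIF-2α.

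**Figure D3:**
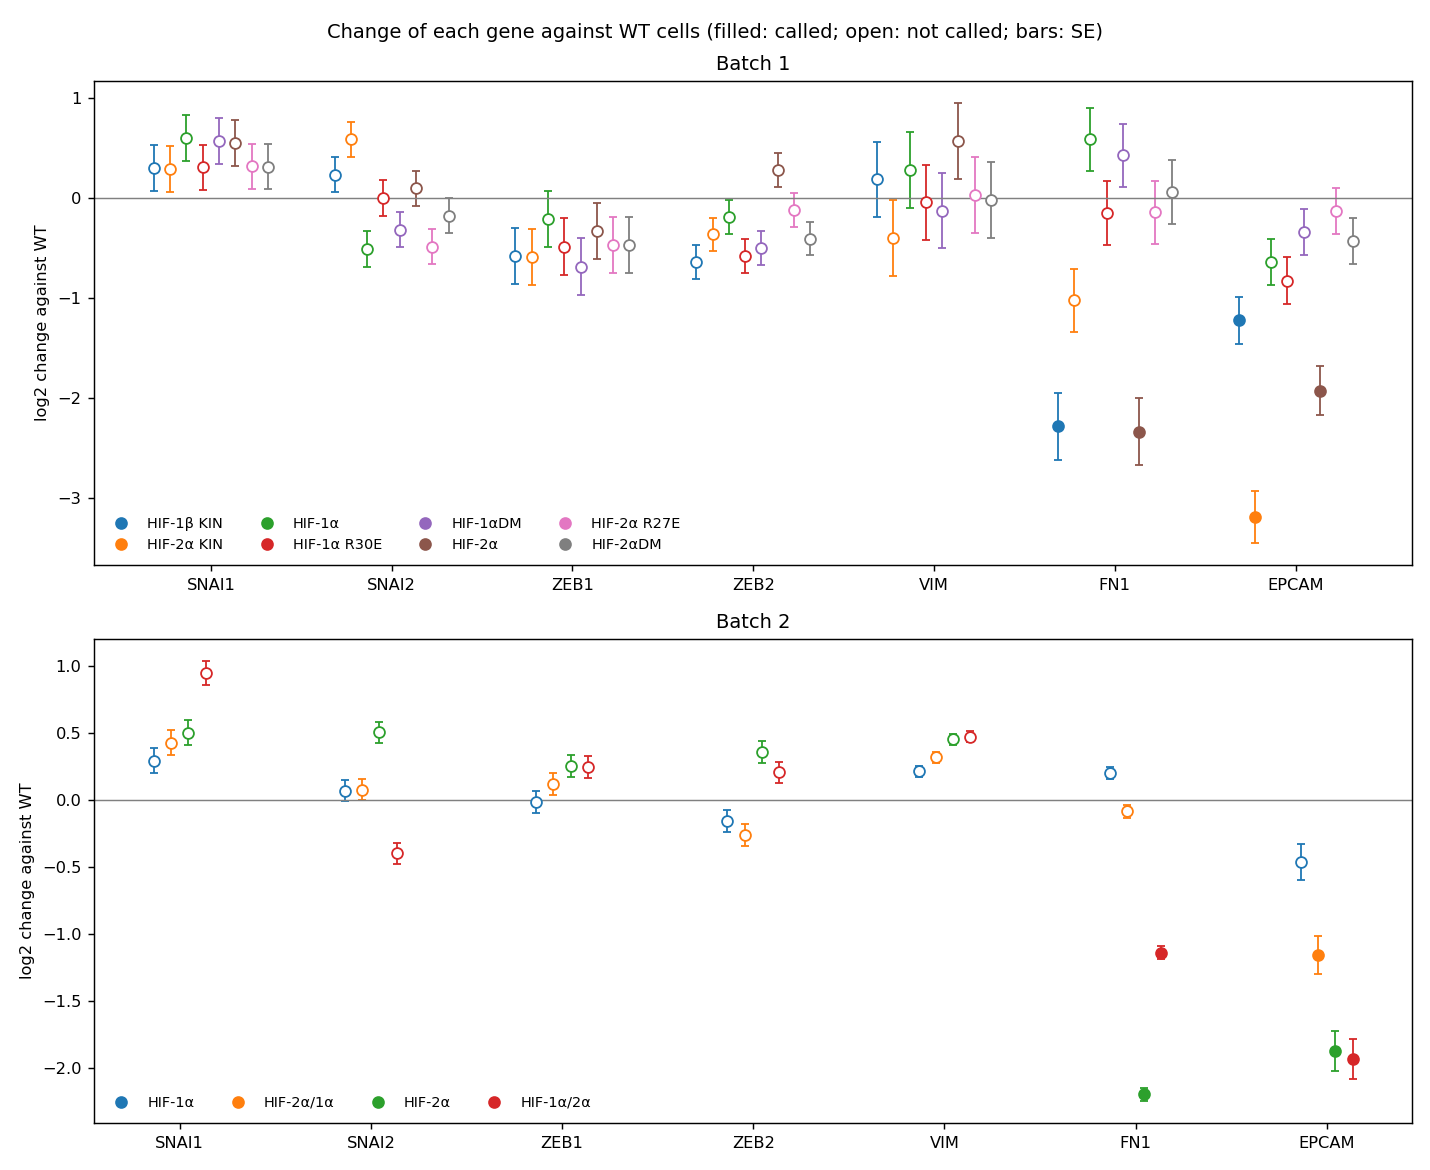
Log2 change from WT of the 7 expressed genes for each line of batch 1 (top) and batch 2 (bottom), as fitted values with SE bars. Filled points are called (adjusted p at most 0.01 and at least 2-fold) and open points are not. The called points are FN1 and EPCAM values between -3.20 and -1.14, and the vertical scales of the panels differ.

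The 4 transgenes of batch 2 form a cross of IDR and structured domain. The IDR effect is the mean of HIF-2α and HIF-1α/2α minus that of HIF-1α and HIF-2α/1α, and the structured-domain effect is the mean of HIF-2α and HIF-2α/1α minus that of HIF-1α and HIF-1α/2α. For the IDR, 2 of 10 genes were called (background 4.41%): FN1 at -1.72 ± 0.03 (adjusted p = 1.08e-36) and EPCAM at -1.09 ± 0.11 (adjusted p = 8.92e-12). By the adjusted p alone 6 passed (24.7%), the other 4 all higher with the HIF-2α IDR: ZEB2 at 0.49 ± 0.06 (adjusted p = 1.13e-09), SNAI1 at 0.36 ± 0.06 (1.03e-05), VIM at 0.20 ± 0.03 (5.98e-07) and ZEB1 at 0.20 ± 0.06 (0.00632). The ZEB1 value missed the threshold when 1 library was left out in 8 of 12 cases (adjusted p up to 0.0343). For the structured domain, edgeR called 0 genes (1.04%), with 4 at an unadjusted p under 0.05, and DESeq2 called 0. By the adjusted p alone 2 passed (11.4%), FN1 at -0.67 ± 0.03 (adjusted p = 1.19e-20) and SNAI2 at 0.46 ± 0.06 (adjusted p = 2.21e-08). With the replicate block EPCAM also passed, at -0.32 with an adjusted p of 0.00664.

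On the log2 scale, the IDR effect differed between the structured domains for 3 genes. The interaction is the IDR effect on the HIF-2α structured domain minus that on the HIF-1α structured domain. For SNAI2 it was 0.89 ± 0.11 (adjusted p = 1.08e-07): the HIF-2α IDR went with a higher mean on the HIF-2α domain (37.6 against 28.0 CPM) and a lower mean on the HIF-1α domain (20.1 against 27.8 CPM). For FN1 it was -0.77 ± 0.07 (adjusted p = 5.57e-12): the means were 1290 against 5567 CPM on the HIF-2α domain and 2683 against 6790 CPM on the HIF-1α domain. In CPM these 2 falls were of similar size, so the FN1 difference belongs to the log2 scale. For SNAI1 it was -0.58 ± 0.13 (adjusted p = 0.00166), with means of 19.9 against 18.9 CPM and of 27.1 against 17.2 CPM, and this value missed the threshold without replicate 2 of HIF-1α/2α (0.0122) or of HIF-2α/1α (0.0138). For EPCAM it was 0.75 ± 0.21 with an adjusted p of 0.0154, and with the replicate block 0.77 with an adjusted p of 0.00149. For the interaction edgeR called 0 of the 10 genes (1.18%), 6 had an unadjusted p under 0.05, DESeq2 called 0, and 3 passed the adjusted p alone (5.37%). Without HIF-2α/1α replicate 3 the SNAI2 interaction reached 2-fold and 1 gene was called.

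**Figure D4:**
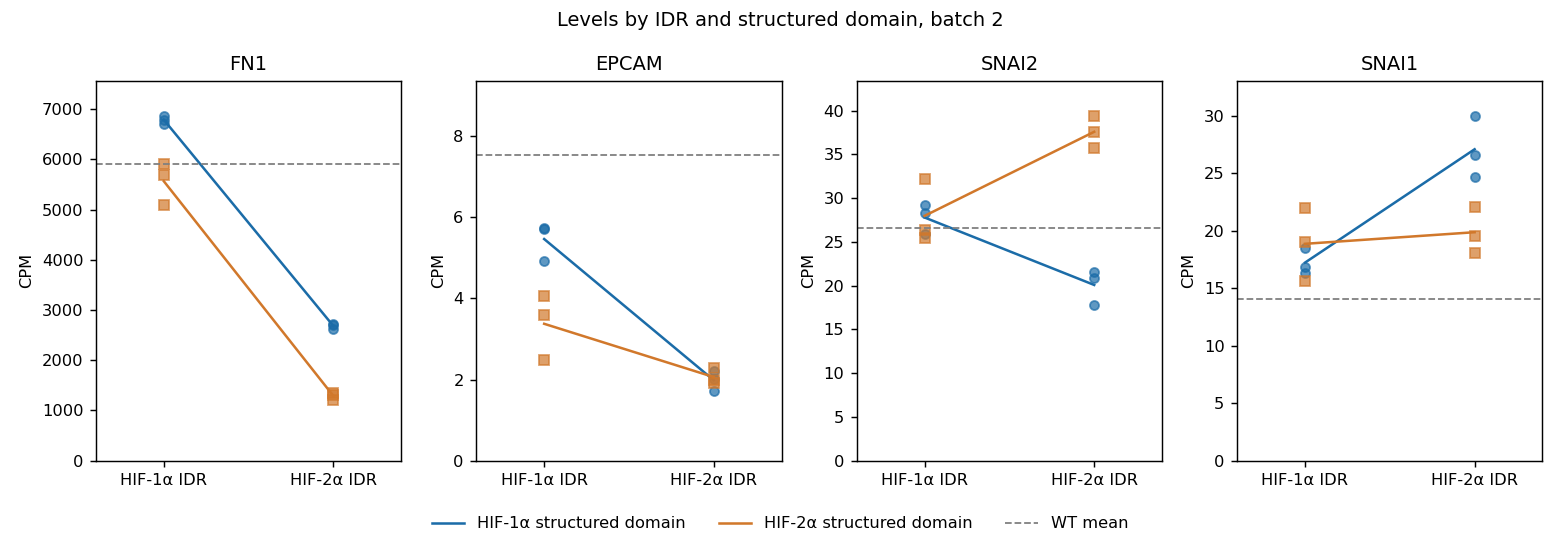
FN1, EPCAM, SNAI2 and SNAI1 in CPM in the 4 transgenic lines of batch 2, by IDR (horizontal) and structured domain (colour and symbol), on linear axes from 0. Points are libraries, lines join group means and the dashed line is the WT mean. The SNAI2 lines part, to 37.6 CPM on the HIF-2α domain and 20.1 CPM on the HIF-1α domain with the HIF-2α IDR, while both FN1 lines go down.

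WT, HIF-1α and HIF-2α were sequenced in both batches, and the changes from WT were compared in 1 fit of these 18 libraries (26763 genes). EdgeR called 0 of the 10 genes for the batch difference of HIF-1α (background 0.00374%, 1 gene) and 0 for that of HIF-2α (0%). The genes at an unadjusted p under 0.05 numbered 2 and 0, and DESeq2 called 0 in both. The FN1 change with HIF-2α differed between batches by 0.00 (95% interval -0.57 to 0.57) and that of EPCAM by -0.09 (-0.60 to 0.42). The HIF-1α change of FN1 differed by -0.55 (-1.12 to 0.02).

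Other genes of the EMT were read from 3 lists: 19 further transcription factors and cofactors, 30 epithelial genes and 30 mesenchymal genes. The lists were chosen with earlier results of these data known. Their counts and medians beside the background, here and in the next paragraphs, are therefore a description and not an independent test. Among the mesenchymal genes, HIF-2α versus WT called 13 of 26 tested in batch 1 (10 higher, 3 lower, background 5.72%) and 13 of 30 in batch 2 (11 higher, 2 lower, background 7.58%). The median log2 change of the tested genes was 1.12 and 0.99, beside -0.09 and 0.07 over all genes. HIF-1α called 7 of 26 (6 higher, background 3.79%) and 8 of 30 (6 higher, 4.39%), with medians of 0.31 in both batches beside -0.03 and 0.03 over all genes. HIF-2α/1α called 11 of 30 (9 higher, background 3.49%, median 0.70) and HIF-1α/2α 15 of 30 (10 higher, 7.78%, median 0.84), where the medians over all genes were 0.03 and 0.08. R27E (background 0.496%), HIF-1αDM (0.457%) and HIF-2αDM (0.474%) each called 1 of 26 genes, in each case FBN1, and R30E (2.61%) called FBN1 and CDH11, both higher. The KIN clones called 3 of 26 (HIF-1β KIN, all lower, background 1.38%) and 4 of 26 (HIF-2α KIN, 1 higher, 4.14%), with medians of -0.11 and -0.32 beside -0.03 and -0.04 over all genes. FBN1, which encodes the microfibril protein fibrillin-1, averaged 1.08 CPM in WT, 36.4 CPM with HIF-2α, 18.7 CPM with HIF-1α and 3.90 to 8.39 CPM in the 4 mutant lines of batch 1. In batch 2 it averaged 3.02 CPM in WT and 36.9 to 86.1 CPM in the 4 lines. COL5A1, a fibrillar collagen gene, averaged 0.359 CPM in WT of batch 2 and 13.3 CPM with HIF-1α/2α (adjusted p = 5.81e-27). LUM, which encodes the matrix proteoglycan lumican, averaged 2.48 CPM and 0.0581 CPM in these groups (adjusted p = 2.69e-13). CDH2 rose with HIF-1α, HIF-2α and HIF-2α/1α in batch 2 by 0.23 to 0.28 on the log2 scale.

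Among the epithelial genes, HIF-2α versus WT called 5 of 27 tested in batch 1 (2 higher, background 5.72%) and 10 of 28 in batch 2 (5 higher, 7.58%), with medians of -0.10 and -0.02 beside -0.09 and 0.07 over all genes. HIF-1α called 5 of 27 (3 higher, background 3.79%) and 6 of 28 (4 higher, 4.39%), with medians of 0.45 and 0.56. HIF-2α/1α called 5 of 28 (2 higher, background 3.49%, median 0.19) and HIF-1α/2α 12 of 28 (4 higher, 7.78%, median -0.42). R30E called 3 of 27 (2 higher, background 2.61%) and the other 3 mutants 0. The HIF-1β KIN called 2 of 27 (1 higher, background 1.38%, median -0.43) and the HIF-2α KIN 7 of 27 (4 higher, 4.14%, median 0.12). ELF3, an epithelial ETS factor, averaged 22.9 CPM in WT of batch 2 against 3.48 CPM with HIF-2α (log2 -2.72 ± 0.13, adjusted p = 2.08e-22), and in batch 1 it rose from 60.9 to 132 CPM in the HIF-2α KIN (adjusted p = 0.00147). DSP, which encodes the desmosomal protein desmoplakin, averaged 1.17 CPM in WT of batch 2 and 13.9 CPM with HIF-1α/2α (adjusted p = 1.47e-24). In batch 1 it had 23 to 48 reads per WT library and at most 1 per library in either KIN clone. CLDN3, a tight-junction claudin gene, averaged 0.667 CPM in WT of batch 2 and 0.0512 CPM with HIF-1α/2α (adjusted p = 4.63e-10). CDH1 had 8 to 20 reads per HIF-2α/1α library against 0 to 1 in WT, which edgeR called (adjusted p = 0.000596) at these low counts.

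Among the further transcription factors and cofactors, batch 2 called 1 of 17 with HIF-1α (background 4.39%), 3 with HIF-2α (7.58%), 0 with HIF-2α/1α (3.49%) and 3 with HIF-1α/2α (7.78%), with medians between -0.12 and 0.07. In batch 1 the comparisons with WT called 0 of 16, except for FOXQ1 in the HIF-2α KIN (1 of 16, background 4.14%), and backgrounds there ran from 0.457% to 5.72%. KLF8, a Krüppel-like repressor, had 1 to 2 reads per WT library of batch 2 and 150 to 196 with HIF-1α/2α (adjusted p = 3.53e-15). SOX4 fell by 1.24 ± 0.07 with HIF-1α/2α (adjusted p = 5.27e-19) and by 1.04 ± 0.07 with HIF-2α (adjusted p = 2.15e-16) on the log2 scale. SOX9 fell by 1.06 ± 0.07 with HIF-2α (adjusted p = 1.92e-16) and was 0.67 ± 0.07 higher with HIF-1α/2α (adjusted p = 4.43e-11). Of 6 host and antisense genes sought, 4 were in the annotation, and 0 of the 2 tested in batch 1 or 3 in batch 2 were called. Annotated genes on the opposite strand overlap the spans of SNAI2, TWIST1, ZEB1, ZEB2, VIM, EPCAM and GRHL2. The counts ignored strand, and a read that fell on exons of 2 genes was counted for neither. Where exons overlap, the levels of these genes leave out such reads, and elsewhere in their exons the strand of a read is not known. How many reads this removed was not measured.

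The genes most like each member were ranked among 12461 candidates by the lower of 2 Pearson correlations of log2 CPM, over 27 and over 15 libraries, as a description in which libraries of a group share their line. FN1 was most like UBA7 (r = 0.892 and 0.937) and SLC16A4 (0.848 and 0.839), and EPCAM most like KCNJ15 (0.914 and 0.885) and DGKI (0.892 and 0.860). VIM was most like SORBS3 (0.831 and 0.873) and ILK (0.817 and 0.816). SNAI1 was most like COL6A2 (0.789 and 0.773) and AP5S1 (0.772 and 0.797), and SNAI2 most like ADAP2 (0.656 and 0.706) and LEPROT (0.678 and 0.627), the weakest pair. ZEB1 was most like SENP7 (0.776 and 0.786) and IFT80 (0.751 and 0.773), and ZEB2 most like C20orf194 (0.839 and 0.852) and TANC2 (0.833 and 0.953).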

How the data were processed

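Poly(A) RNA was sequenced from 786-O lines grouped by their labels (27 libraries in batch 1, 15 in batch 2). The authors deposited raw read counts per gene: unique STAR alignments to hg38 were assigned to GENCODE genes by HTSeq (union, unstranded). Spike-in reads were not used here. Genes whose normalized count averaged 0.5 or more were fitted to these counts with edgeR 4.0.16 (R 4.3.3; TMM, glmQLFit, glmQLFTest), once per batch over all groups without a replicate block, and once over 18 libraries for batch differences. P-values were adjusted by Benjamini-Hochberg over all genes tested. CPM used TMM-scaled library sizes and RPKM the GENCODE union-exon length. The fit was also run on simulated counts. These had the same spread for every gene and no shared deviation by replicate number, so that run does not test the spread of the batch 1 libraries. Depth ran from 42377599 to 109642159 reads, and intervals are 95%.

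The members, gene lists and comparisons were chosen with earlier results of these data known. Genes named from the lists were up to 3 per list with the largest called change from WT in a KIN clone or a line without mutation, free of overlap and averaging 50 or more normalized counts, plus CDH1, CDH2, HIF1A, EPAS1 and ARNT. FOXQ1 and CDH11, named beside small counts, were picked after their values were seen. Alternatives were RLE size factors, DESeq2 1.42.0, no filter, a minimum of 10, only the groups compared, a replicate block, an adjusted p of 0.05 without a fold, and each library left out. Leaving out the batch 1 libraries numbered 3 was added after seeing the data. Same-numbered libraries of batch 1 deviated together (mean correlation 0.244, every pair over 0.1 in 8 of 14 comparisons, among them the 3 with a KIN clone), and those of batch 2 did not (0.00449, 0 of 8 comparisons).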

Additional observations from a re-analysis of the deposited data

Results flagged for a closer look

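In batch 2 the effect of exchanging the HIF-1α IDR for the HIF-2α IDR differed between the HIF-2α and HIF-1α structured domains for 3 of the genes, by the interaction term of the edgeR fit. The difference was 0.89 on the log2 scale for SNAI2 (adjusted p = 1.08e-07), -0.77 for FN1 (5.57e-12) and -0.58 for SNAI1 (0.00166). Groups of 3 libraries were too small for a search for single outlying libraries.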

How the results depend on the processing

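No log2 change that passed the adjusted p turned its sign under any alternative run. Of 354 recomputed counts of called genes, 329 stayed within 1.5 times the reported one and 25 moved. Of 631 recomputed log2 changes that passed the adjusted p, 598 kept their side of the threshold and 33 lost it. Of 130 pairs of gene and comparison that did not pass, 38 changed sign under some alternative. With only the groups compared, 1 gene was called for the HIF-1β KIN (EPCAM lost), 1 for HIF-2α versus HIF-1α in batch 1, and 2 between the KIN clones. With the batch 1 libraries numbered 3 left out, an alternative chosen after seeing the data, 1 was called for the HIF-1β KIN and 2 between the clones. No filter called 2 for the HIF-2α KIN and 2 between the clones, the replicate block gave the same 2 and 2, and DESeq2 called 2 between the clones. FN1 was the gene added in each, and the block changed no other call, which needs 2-fold. An adjusted p of 0.05 without a fold passed 3 genes for the HIF-2α KIN, 2 for R30E and 2 between the clones. In batch 2 the numbers against WT were 4 with HIF-1α, 7 with HIF-2α, 4 with HIF-2α/1α and 7 with HIF-1α/2α. They were 6 for HIF-2α versus HIF-1α, 6 for the IDR, 3 for the structured domain and 4 for the interaction. The share of all genes passing at 0.05 was not measured, so these counts have no background to be judged against. Under the stricter adjusted p of the reported calls, without a fold, 16.7% to 27.8% of all genes passed against WT in batch 2. For the other batch 2 comparisons these shares ran from 5.37% to 24.7%. Leaving out 1 library gave 1 to 2 calls for the HIF-1β KIN, 0 to 1 for HIF-2α/1α, 2 to 3 for HIF-1α/2α and 0 to 1 for the interaction, and every other count stayed as reported. Where a group was left with 2 libraries, the spread was still shared over all groups of the batch. Other than the lower number of libraries or genes, the cause was not tested. Depth limits TWIST1, TWIST2 and GRHL2, which had at most 9 reads in all.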

Other observations

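EPCAM lies on the same chromosome as EPAS1, the locus tagged in the HIF-2α KIN clone, with 958461 bases between the 2 genes, a proximity looked up after the EPCAM values were seen. Of the 16 other genes within 1000000 bases of EPCAM that had a mean normalized count of at least 50 in batch 1, 1 was called for the HIF-2α KIN versus WT, 12 had a log2 change below 0, and the median was -0.23. For the HIF-1β KIN 0 of 16 were called (background 1.38%) and 5 lay below 0, with a median of 0.14, beside -0.03 over all genes. The lines whose EPAS1 locus was not tagged were read the same way. In batch 1, 14 of 16 lay below 0 with HIF-1α (0 called, background 3.79%, median -0.14) and 9 of 16 with HIF-2α (1 called, 5.72%, median -0.06). In batch 2, where 17 genes were read, 15 lay below 0 with HIF-1α (0 called, background 4.39%, median -0.14) and 12 with HIF-2α (2 called, 7.58%, -0.18). The numbers were 11 with HIF-2α/1α (0 called, 3.49%, -0.07) and 12 with HIF-1α/2α (1 called, 7.78%, -0.07). EPAS1 itself had the lowest value among the 16 for the HIF-2α KIN, at -1.23. In the lines with HIF-2α sequence, EPAS1 counts include transgene reads, so their values do not come from the locus alone. The highest log2 change among the genes was 1.62 with HIF-2α in batch 1, 1.75 with HIF-2α in batch 2 and 2.03 with HIF-1α/2α. EPAS1 averaged 666 against 216 CPM in WT, 475 against 141 CPM and 574 against 141 CPM there. A part of the locus in the EPCAM level of the clone was not tested.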
